A study of Mus musculus with 12 samples.

Results

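The colon wall carries its own nervous system, and 31 genes known from enteric neurons and enteric glia were read in colon tumours of mice with and without the interleukin-33 receptor ST2. The genes were taken by name, from a list drawn up with earlier results of these data known, and all 31 were present among the 24062 genes of the count table. Of these, 23 are neuron genes, 3 (S100b, Sox10 and Gfap) are glia genes, and 5 (Ncam1, Gap43, Gfra1, Gfra2 and Gfra3) are known from both cell kinds. A filter on low counts kept 28 of the 31 and left out Chat, Nos1 and Ecel1.

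All mice were Balb/c bone marrow chimeras. WT or St2-/- hosts received 2 irradiation doses of 5 Gy, then marrow from WT or St2-/- donors, and 8 weeks later 6 weekly injections of the colon carcinogen azoxymethane (AOM) at 10 mg/kg. Tumours were collected at 13 or 14 weeks from the final injection, and each of the 4 groups has 3 libraries from 11 males and 1 female in all. Groups are written marrow => host: WT => WT, St2-/- => WT, WT => St2-/- and St2-/- => St2-/-. The female is WT => St2-/- replicate 3, and ages are not given in the sources used here. After irradiation the blood cells derive from the marrow donor, whereas enteric neurons, glia and muscle belong to the host. A chimera can keep some host immune cells, whose share is not known here.

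Enteric neurons lie in a plexus between the muscle layers and in a plexus of the submucosa, and they signal with acetylcholine, nitric oxide and many peptides. Enteric glia surround them and send processes into the mucosa. Both arise from neural crest cells that enter the gut under the guidance of glial cell line-derived neurotrophic factor acting through the receptor Ret. The mucosa from which colon tumours grow holds nerve fibres and glia but few neuron cell bodies.

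Libraries held between 10293818 and 12962496 counts in genes. Il1rl1, which encodes ST2, lay between 36.5 and 275 CPM (read counts scaled to a common library size and composition) in the 6 WT hosts and between 7.30 and 25.0 in the 6 St2-/- hosts. Labels number WT and St2-/- hosts in different ranges, so a cohort of mice and the host genotype cannot be told apart. The labels do not say which part of the wall each tumour piece contained, and in bulk RNA fewer cells of a type and less RNA per cell cannot be told apart.

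RefSeq promoters of build GRCm38.p6 were given for 20 of the 31 genes. The 5 printed here belong to peptide or granule genes described next. Vip, Cartpt, Scg2 and Gal were highest in the same pair of libraries and Tac1 was not. Each line holds the 250 bases upstream of the start site in the table, read 5′ to 3′ on the gene's strand, and capitals mark matches to TGACG on either strand, a core of the cyclic AMP response element.
Vip chr10:5638968-5639217 plus strand: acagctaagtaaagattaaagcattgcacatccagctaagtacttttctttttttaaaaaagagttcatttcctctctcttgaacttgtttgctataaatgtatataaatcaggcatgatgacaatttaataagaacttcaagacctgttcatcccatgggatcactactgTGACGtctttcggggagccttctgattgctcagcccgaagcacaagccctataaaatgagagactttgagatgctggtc
Cartpt chr13:99900684-99900933 minus strand: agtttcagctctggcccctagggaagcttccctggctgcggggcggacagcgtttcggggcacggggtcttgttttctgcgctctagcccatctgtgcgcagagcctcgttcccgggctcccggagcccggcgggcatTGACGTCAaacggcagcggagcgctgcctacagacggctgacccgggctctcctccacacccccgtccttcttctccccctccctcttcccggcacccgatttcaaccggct
Scg2 chr1:79440027-79440276 minus strand: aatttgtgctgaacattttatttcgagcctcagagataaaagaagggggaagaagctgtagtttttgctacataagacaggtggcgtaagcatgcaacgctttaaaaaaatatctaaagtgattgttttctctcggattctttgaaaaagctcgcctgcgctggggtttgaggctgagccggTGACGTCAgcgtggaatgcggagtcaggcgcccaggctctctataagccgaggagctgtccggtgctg
Gal chr19:3414545-3414794 minus strand: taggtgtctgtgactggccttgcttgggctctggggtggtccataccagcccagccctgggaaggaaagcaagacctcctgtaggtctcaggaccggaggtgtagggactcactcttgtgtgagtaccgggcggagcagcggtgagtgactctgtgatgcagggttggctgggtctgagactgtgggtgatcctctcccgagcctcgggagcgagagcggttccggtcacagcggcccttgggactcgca
Tac1 chr6:7554811-7555060 plus strand: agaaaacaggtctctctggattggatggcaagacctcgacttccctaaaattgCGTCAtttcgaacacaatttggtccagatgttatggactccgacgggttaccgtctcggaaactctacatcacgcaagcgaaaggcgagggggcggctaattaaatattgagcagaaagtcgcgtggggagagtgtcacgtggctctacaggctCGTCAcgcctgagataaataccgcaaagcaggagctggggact
Gal has no match. In Cartpt and Scg2 the matches on both strands overlap and form the whole palindrome TGACGTCA. Over the same 250 bases, TGACG was present in 8 of the 17 neuron genes with an entry (Cartpt, Chat, Elavl4, Hand2, Nos1, Scg2, Tac1 and Vip) and in neither of the 2 glia genes. By promoter entry, of which a gene can have several, it was in 10 of 21 for neuron genes (47.6%), against 17.8% of 32851 promoters of all genes. Genes with the match include Tac1, whose levels differed from the others, and the match is a description of these letters and no more. The SOX letters ACAAAG were in 3 of the 17 neuron genes and neither glia gene (16.5% of all promoters), and E-boxes, CANNTG, were in 12 of the 17 (66.2% of all).

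The 31 genes varied widely between libraries of one group. St2-/- => WT replicate 1 and WT => St2-/- replicate 2 had summed levels of 509 and 522 CPM. The other 10 libraries lay between 62.6 and 186 CPM, with St2-/- => WT replicate 2 at 174 and WT => St2-/- replicate 3 at 186 as the next highest. One of those 2 highest libraries held the top value for 26 of the 31 genes (83.9%, against 23.1% of all 15060 genes tested). For 20 genes they were the highest pair (64.5%, against 3.75% of all genes tested). For 17 genes the 4 libraries just named were exactly the 4 highest, including all 3 glia genes, which held for 2.18% of all genes tested. These libraries were picked from the same values, so the shares describe them. The median standard deviation of log2 CPM within groups was 1.33 over the 28 genes kept, against 0.312 over all genes tested, and each of the 28 exceeded 0.312.

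**Figure D1:**
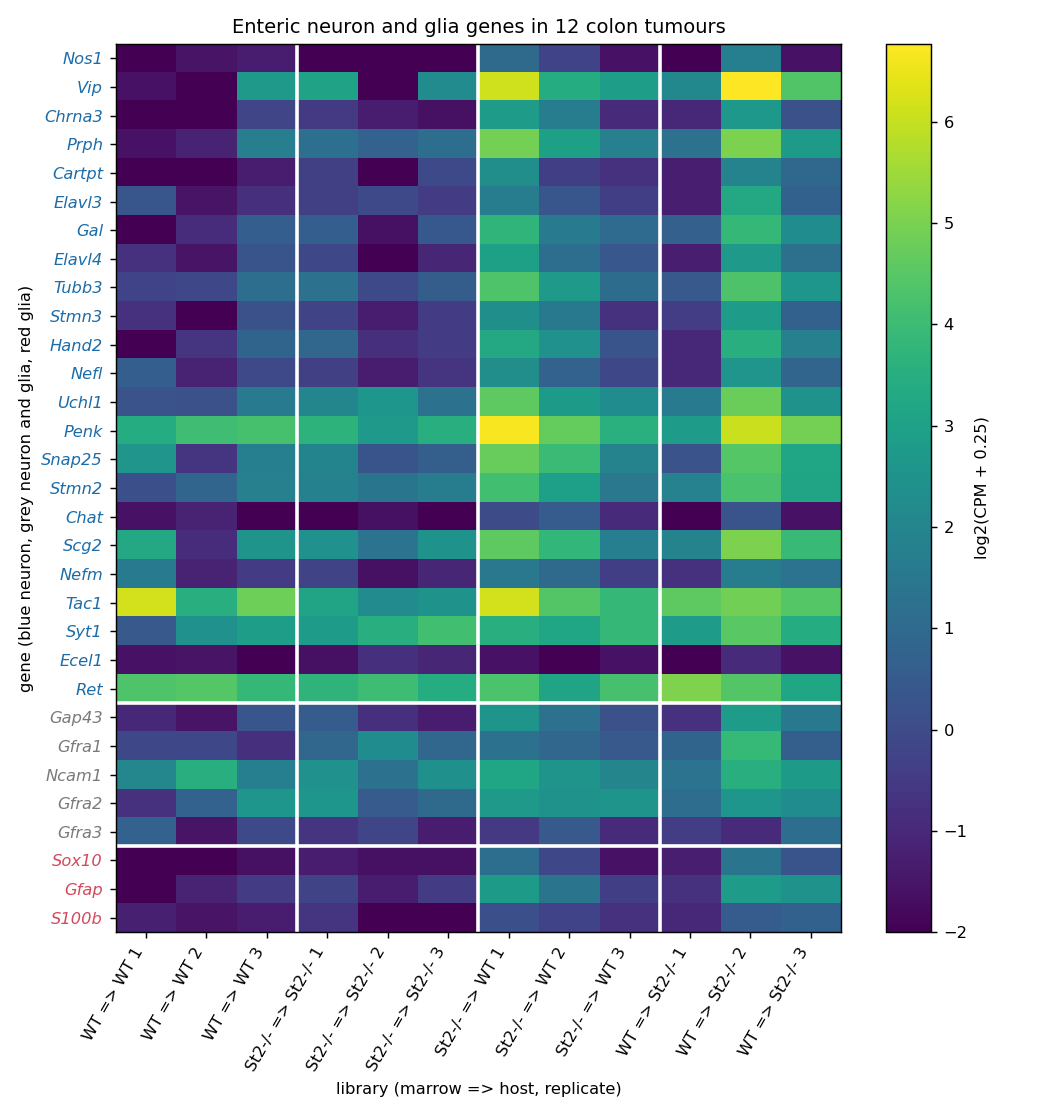
Level of each gene (rows, by class) in each library (columns, marrow => host and replicate), as log2(CPM + 0.25) on a colour scale. St2-/- => WT replicate 1 and WT => St2-/- replicate 2 form 2 bright columns, while Ret and Gfra3 are highest in other libraries. Syt1 and Tac1 are highest in 1 of these 2, with another library second.

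Among neuron identity genes, Uchl1, a ubiquitin hydrolase abundant in neurons, was 0.945, 0.870 and 2.71 CPM in WT => WT and 23.9, 6.69 and 4.60 in St2-/- => WT. It was 2.79, 27.3 and 5.27 CPM in WT => St2-/- and 3.82, 5.78 and 2.24 in St2-/- => St2-/-. All 6 libraries of the groups with unlike marrow and host were above all 3 WT => WT libraries, and St2-/- => St2-/- overlapped with the rest. Elavl4, a neuronal RNA-binding protein, was 0.343, 0.0966 and 0.955 CPM in WT => WT, 7.58, 1.97 and 1.04 in St2-/- => WT, 0.169, 6.26 and 2.11 in WT => St2-/-, and 0.688, 0 and 0.232 in St2-/- => St2-/-. Its relative Elavl3 was 1.03, 0.0966 and 0.318 CPM in WT => WT, 2.93, 1.03 and 0.520 in St2-/- => WT, 0.169, 9.57 and 1.41 in WT => St2-/-, and 0.535, 0.712 and 0.464 in St2-/- => St2-/-. Elavl3 was high in WT => St2-/- replicate 2 in particular, and part of its exons overlap those of another gene on the same strand.

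Of the cytoskeletal and synaptic genes, Tubb3, Prph, Stmn2 and Snap25 were highest in St2-/- => WT replicate 1 and WT => St2-/- replicate 2. Unlike Uchl1, each had a WT => WT library above a library with unlike marrow and host. Tubb3, a tubulin of neurons, was 0.601, 0.676 and 1.99 CPM in WT => WT, 20.2, 6.52 and 1.91 in St2-/- => WT, 1.10, 19.9 and 5.89 in WT => St2-/-, and 2.14, 0.712 and 1.24 in St2-/- => St2-/-. Prph, an intermediate filament of peripheral neurons, was 0.0859, 0.193 and 3.10 CPM in WT => WT, 30.2, 7.72 and 3.30 in St2-/- => WT, 2.20, 32.6 and 6.59 in WT => St2-/-, and 2.06, 1.42 and 2.01 in St2-/- => St2-/-. Replicates 1 and 2 of WT => WT held almost no Prph, with 1 and 2 counts. Stmn2, which regulates microtubules in growing axons, was 0.859, 1.55 and 3.26 CPM in WT => WT, 16.9, 7.54 and 2.60 in St2-/- => WT, 3.47, 18.6 and 8.44 in WT => St2-/-, and 3.36, 2.37 and 2.94 in St2-/- => St2-/-. Snap25, part of the machinery of vesicle fusion, was 5.75, 0.387 and 3.18 CPM in WT => WT, 26.2, 15.5 and 3.56 in St2-/- => WT, 0.931, 21.5 and 8.97 in WT => St2-/-, and 3.67, 0.950 and 1.31 in St2-/- => St2-/-. Snap25 separated from the other 3 in WT => WT replicate 1, where it was the highest of its group. Nefm, a neurofilament, shared that trait at 2.75, 0.193 and 0.478 CPM in WT => WT, against 2.59, 1.80 and 0.520 in St2-/- => WT, 0.339, 3.04 and 2.29 in WT => St2-/-, and 0.611, 0.0791 and 0.232 in St2-/- => St2-/-.

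Transmitter peptides included the highest single values. Vip, the relaxing peptide of inhibitory motor and secretomotor neurons, was 0.0859, 0 and 6.37 CPM in WT => WT and 70.1, 10.54 and 7.20 in St2-/- => WT. In WT => St2-/- it was 4.06, 109 and 20.7 CPM, and in St2-/- => St2-/- 8.02, 0 and 4.48. The deepest Vip library held 1250 counts and 2 libraries held none, and 74.4% of its summed CPM came from St2-/- => WT replicate 1 and WT => St2-/- replicate 2. Penk, the enkephalin precursor, was 10.4, 16.6 and 18.6 CPM in WT => WT, 102, 25.8 and 11.7 in St2-/- => WT, 6.94, 67.5 and 30.3 in WT => St2-/-, and 12.4, 6.25 and 11.1 in St2-/- => St2-/-. Per kilobase of exon Penk had the highest mean level of the 31 genes, at 16.3 CPM per kb, followed by Tac1 at 7.62, Vip at 5.89 and Uchl1 at 4.44. Scg2, a granule protein, was 9.62, 0.290 and 5.49 CPM in WT => WT, 23.9, 13.9 and 3.21 in St2-/- => WT, 3.55, 32.6 and 14.9 in WT => St2-/-, and 5.20, 2.30 and 5.26 in St2-/- => St2-/-. Gal, which encodes galanin, lay between 1.35 and 14.2 CPM in all 6 libraries with unlike marrow and host. In the 6 with like marrow and host its range was lower, at 0 to 1.30 CPM. The nearest libraries, WT => St2-/- replicate 1 and St2-/- => St2-/- replicate 1, held 16 and 17 Gal counts. Gal was the only 1 of 28 genes kept by the filter to be higher without overlap, beside 27 of all 15060 genes tested. Cartpt, a peptide precursor of enteric neurons, held 2 counts over the 3 WT => WT libraries against 65 in St2-/- => WT, a ratio of 32.3 (95% exact counting interval 8.58 to 272). Its levels were 0, 0 and 0.159 CPM in WT => WT, 4.74, 0.514 and 0.347 in St2-/- => WT, 0.169, 3.57 and 1.67 in WT => St2-/-, and 0.535, 0 and 0.696 in St2-/- => St2-/-. Counting intervals here cover counting error only, not the spread between mice.

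The enzymes that define the main motor neuron classes were near the detection limit. Nos1, the nitric oxide synthase of inhibitory neurons, held 21, 7 and 1 counts in St2-/- => WT and 0, 37 and 1 in WT => St2-/-. It held 0, 1 and 2 counts in WT => WT and 0 in each St2-/- => St2-/- library, where 3 counts would be 0.229 to 0.237 CPM. Chat, the acetylcholine-synthesising enzyme, held 9, 14 and 3 counts in St2-/- => WT, 0, 11 and 1 in WT => St2-/-, 1, 2 and 0 in WT => WT, and 0, 1 and 0 in St2-/- => St2-/-. All 3 St2-/- => WT libraries thus held at least 3 Chat counts, and its highest library was St2-/- => WT replicate 2. Ecel1 did not exceed 4 counts in a library.

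The 3 glia genes were also low, with 64 to 278 counts over all 12 libraries. Sox10, the transcription factor that glia keep from their neural crest origin, held 0, 0 and 1 counts in WT => WT, 23, 8 and 1 in St2-/- => WT, 2, 27 and 11 in WT => St2-/-, and 2, 1 and 1 in St2-/- => St2-/-. Summed over libraries this is 40 counts in WT => St2-/- against 1 in WT => WT, a ratio of 39.8 (95% exact counting interval 6.75 to 1610). Gfap, the intermediate filament of astrocytes and of some enteric glia, was 0, 0.193 and 0.478 CPM in WT => WT, 6.55, 2.32 and 0.520 in St2-/- => WT, 0.339, 6.87 and 5.45 in WT => St2-/-, and 0.611, 0.158 and 0.464 in St2-/- => St2-/-. In 8 libraries Gfap held 0 to 8 counts, and in the other 4 it held 27 to 79. S100b, a calcium-binding protein used to stain glia, held 2, 1 and 2 counts in WT => WT, 10, 7 and 4 in St2-/- => WT, 3, 14 and 16 in WT => St2-/-, and 5, 0 and 0 in St2-/- => St2-/-. Its levels were 0.172, 0.0966 and 0.159 CPM, 0.862, 0.600 and 0.347 CPM, 0.254, 1.22 and 1.41 CPM, and 0.382, 0 and 0 CPM in the same order. Unlike Sox10 and Gfap, S100b was highest in WT => St2-/- replicate 3.

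For several genes, St2-/- => WT replicate 1 and WT => St2-/- replicate 2 were not the highest pair. Tac1, the substance P precursor of excitatory motor neurons, which epithelial endocrine cells can also make, was 71.2, 11.1 and 28.4 CPM in WT => WT and 72.0, 21.2 and 14.0 in St2-/- => WT. It was 23.8, 29.3 and 21.5 CPM in WT => St2-/- and 8.48, 4.43 and 5.41 in St2-/- => St2-/-, so the last group lay below all 9 other libraries. WT => WT replicate 1, second highest for Tac1, had 0.0859 CPM of Vip. Of 16 genes of epithelial endocrine cells, 6 were highest in that library (Chga, Chgb, Gcg, Tph1, Insm1 and Fev) and 10 in others. Chgb was 15.9 ± 4.33 CPM in St2-/- => St2-/- (SD, n = 3), its lowest group mean. Pyy, the most abundant of the 16, was highest in St2-/- => WT replicate 3, at 761 CPM, and was 81.2 ± 48.7 CPM in WT => WT and 145 ± 47.9 in St2-/- => St2-/- (SD, n = 3). The 16 endocrine genes summed to 86.9 to 599 CPM in WT => WT, 204 to 835 in St2-/- => WT, 157 to 652 in WT => St2-/- and 185 to 244 in St2-/- => St2-/-. Any part of endocrine cells in the Tac1 values was not tested. Ret, the receptor for the neurotrophic factor that guides enteric neurons, was 20.1, 21.6 and 14.2 CPM in WT => WT, 19.4, 8.40 and 18.2 in St2-/- => WT, 33.3, 21.1 and 8.97 in WT => St2-/-, and 12.7, 16.1 and 10.6 in St2-/- => St2-/-. Ret was highest in WT => St2-/- replicate 1, which held 1.10 CPM of Tubb3 and 2 Sox10 counts. Syt1, a synaptic vesicle calcium sensor, was 1.12, 5.12 and 7.24 CPM in WT => WT, 11.4, 8.74 and 14.2 in St2-/- => WT, 7.02, 22.6 and 10.46 in WT => St2-/-, and 6.88, 11.2 and 17.1 in St2-/- => St2-/-. Its values spanned a narrower range than those of Snap25.

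The co-receptors that bind the Ret ligands also went their own ways. Gfra1, which binds glial cell line-derived neurotrophic factor, was 14.4 CPM in WT => St2-/- replicate 2 and 4.51 in St2-/- => St2-/- replicate 2, and between 0.318 and 2.15 in the other 10 libraries. In WT => WT it was 0.687, 0.676 and 0.318 CPM, below each of the 9 other libraries. The other libraries held 2.15, 1.63 and 1.13 CPM in St2-/- => WT, 1.52, 14.4 and 1.32 in WT => St2-/-, and 1.61, 4.51 and 1.62 in St2-/- => St2-/-. Gfra2, the neurturin co-receptor, ranged from 0.343 to 6.46 CPM with a median of 4.90, and its highest 2 libraries were St2-/- => WT replicate 1 and St2-/- => St2-/- replicate 1. Gfra3, the artemin co-receptor, did not exceed 2.02 CPM and was highest in WT => St2-/- replicate 3. Ncam1, an adhesion molecule, lay between 2.14 and 11.2 CPM and was nearly as high in WT => WT replicate 2 as in its top library.

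**Figure D2:**
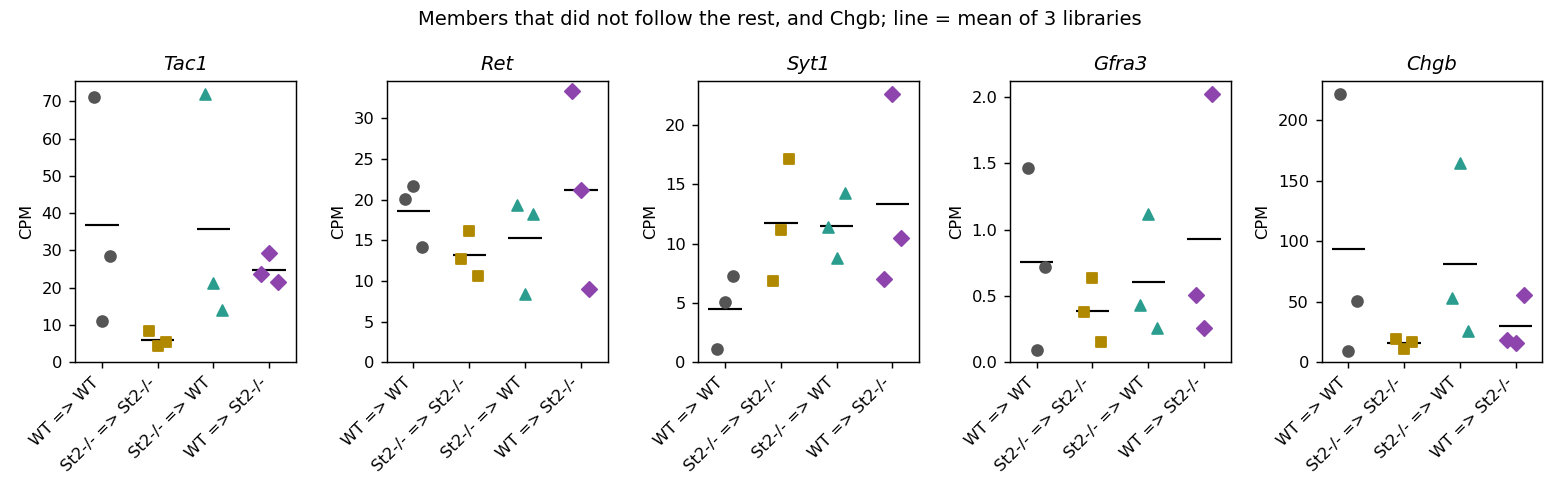
CPM (linear axes) of Tac1, Ret, Syt1, Gfra3 and the endocrine gene Chgb in each library by group (marrow => host), with a line at the mean of 3 libraries. Tac1 was 4.43 to 8.48 CPM in St2-/- => St2-/-, and both Tac1 and Chgb had a WT => WT library at or near the top.

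The remaining neuron genes, Hand2, Chrna3, Nefl and Stmn3, and Gap43 of the shared class had the top value in St2-/- => WT replicate 1 or WT => St2-/- replicate 2, with the other of the 2 second. Hand2 is a transcription factor of enteric neuron development, Chrna3 a nicotinic receptor subunit, and Gap43 a growth cone protein. Their highest values were 5.65 to 11.4 CPM and their lowest 0 to 0.158, and each had a highest library between 7.13 and 19.2 times its median.

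Neuron and glia genes were then set side by side. Summed CPM of the 23 neuron genes was 96.1 ± 33.6 in WT => WT, 241 ± 206 in St2-/- => WT, 242 ± 203 in WT => St2-/- and 65.7 ± 11.2 in St2-/- => St2-/- (SD, n = 3 each). The 3 glia genes summed to 0.393 ± 0.287, 4.65 ± 4.32, 6.34 ± 5.00 and 0.642 ± 0.463 CPM in the same order. Glia sums spanned 60.7-fold between the lowest and highest library and neuron sums 8.89-fold. The ratio of neuron to glia sum was 738, 207 and 142 in WT => WT, 50.7, 43.0 and 95.8 in St2-/- => WT, 122, 45.3 and 20.6 in WT => St2-/-, and 66.0, 226 and 126 in St2-/- => St2-/-. It was lowest where both sums were high, in WT => St2-/- replicates 2 and 3 and St2-/- => WT replicates 1 and 2. Group means of the ratio did not keep this order when other glia genes were added, as given at the end.

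The difference in span depended on which neuron genes were summed. Without Tac1, Ret, Penk and Syt1, left out after their values were seen, the other 19 neuron genes spanned 59.3-fold, beside 60.7-fold for glia. The lowest sum of the 19 was 5.60 CPM, in WT => WT replicate 2. The lowest glia sum was 0.172 CPM, or 2 counts, in WT => WT replicate 1. As the 4 genes were picked from these values, the closeness of the spans is a description only. The ratio of these 19 to glia was then 139, 19.3 and 46.3 in WT => WT, 28.9, 25.2 and 34.9 in St2-/- => WT, 28.3, 31.9 and 11.5 in WT => St2-/-, and 30.7, 65.7 and 44.0 in St2-/- => St2-/-. The 2 most extreme ratios of the matched groups, 139 and 19.3, rest on 2 and 3 glia counts. WT => St2-/- replicate 3 stood lowest at 11.5, with 89 glia counts.

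**Figure D3:**
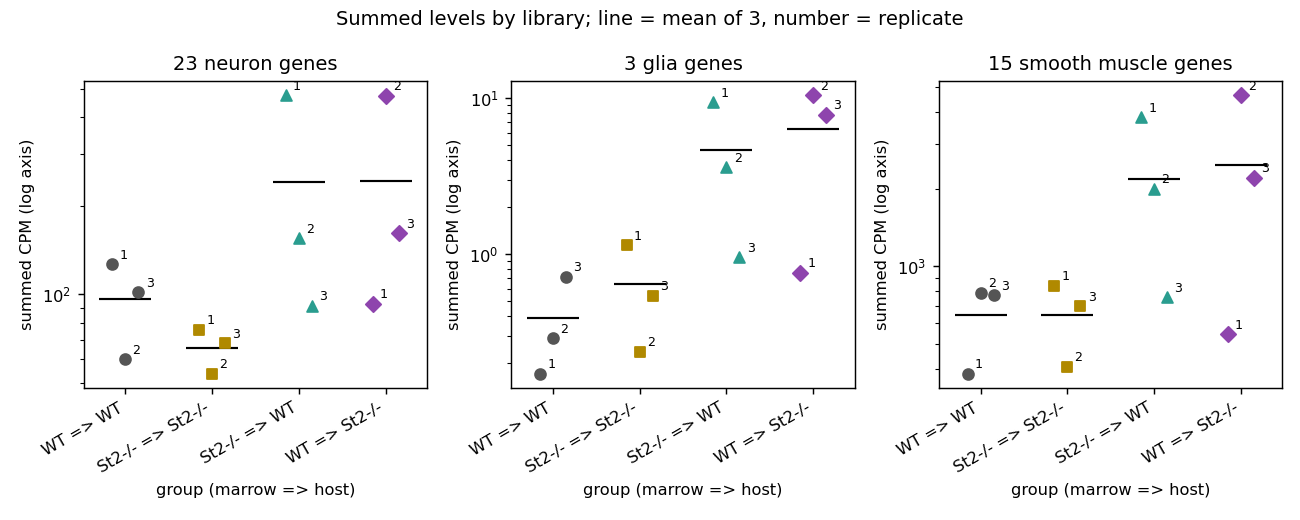
Summed CPM (log axes) of the 23 neuron genes, 3 glia genes and 15 smooth muscle genes in each library, by group (marrow => host), with the replicate number beside each point and a line at the mean of 3. In all 3 panels St2-/- => WT replicates 1 and 2 and WT => St2-/- replicates 2 and 3 are the 4 highest libraries.

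None of the 28 genes was called at an adjusted p under 0.05 by edgeR's quasi-likelihood test with Benjamini-Hochberg adjustment in any of 8 comparisons. The comparisons share groups and so are not independent of each other. For the host genotype under WT marrow (WT => St2-/- minus WT => WT), 27 of 28 genes were higher, with a median log2 fold change of 2.70, against a median of 0.01 over all genes tested. That comparison called 0.159% of all genes, and the lowest adjusted p of a member was 0.153, for Gfra1. At an unadjusted p under 0.05, 16 of the 28 were higher, against 8.36% of all genes. The largest differences by p were Gfra1 at 3.34 (SE 0.95, unadjusted p = 0.00503), Sox10 at 4.90 (SE 1.42, 0.00569), Gfap at 4.15 (SE 1.28, 0.00824) and Stmn2 at 2.42 (SE 0.769, 0.00969) by the same test. The 16 became 2 without WT => St2-/- replicate 2, 5 without WT => WT replicate 2, 8 without WT => WT replicate 1, and 0 without both WT => St2-/- replicates 2 and 3. They were 5 by limma-voom, 7 in a fit of the 2 groups alone and 9 with weeks after AOM as a covariate. Of 15 smooth muscle genes 11 were higher at an unadjusted p under 0.05. Of 8 mast cell genes 8 were above 0 and 6 were higher at that p, with a median log2 fold change of 2.72 and a lowest adjusted p of 0.113 by edgeR. The mast cell genes summed to 608, 2109 and 189 CPM in WT => St2-/- against 148, 98.5 and 138 in WT => WT. None of 8 epithelial genes passed that p, with 8 below 0. Of 6 leukocyte genes 3 were lower, beside 1255 of all 15060 genes tested. The part of these other cell kinds in the result was not tested. DESeq2 called 7 of the nerve genes, with Gfap at 4.24, Stmn2 at 2.44 and Sox10 at 5.23 among them. Counts under other tools and settings, here and below, stand without the share of all genes that passed under them.

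Under St2-/- marrow the host difference had the opposite sign. From St2-/- => WT to St2-/- => St2-/- the median log2 fold change was -2.34 (0.00 over all genes), and 11 of 28 were lower at an unadjusted p under 0.05, against 7.36% of all genes. This comparison called 0.0598% of all genes, and the lowest adjusted p was 0.301, for Tac1 at -2.55 (SE 0.718). Tubb3 was -2.79 (SE 1.06), Penk -2.24 (SE 0.848) and Elavl4 -3.47 (SE 1.33), with adjusted p of 0.378, 0.378 and 0.379 by edgeR. The 11 became 2 without St2-/- => WT replicate 1, without St2-/- => St2-/- replicate 2 or without St2-/- => St2-/- replicate 3, and 18 without St2-/- => WT replicate 3 and 19 without WT => St2-/- replicate 1. They were 20 by limma-voom and 1 with weeks as a covariate. Limma-voom with sample weights called 8 of the genes and DESeq2 called 1, Tac1.

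Marrow genotype gave the same mirror image. In WT hosts, St2-/- => WT exceeded WT => WT with a median log2 fold change of 2.26 (0.01 over all genes), and 10 of 28 were higher at an unadjusted p under 0.05, against 2.92% of all genes. No gene of the table was called (0%), and the members' lowest adjusted p was 0.798. Sox10 was 4.57 (SE 1.44), Uchl1 2.94 (SE 0.95), Stmn2 2.24 (SE 0.766) and Gfap 3.72 (SE 1.28). The 10 became 1 without St2-/- => WT replicate 1, 4 and 5 without WT => WT replicates 1 and 2, and 15 to 17 without WT => WT replicate 3, St2-/- => WT replicate 3, or WT => St2-/- replicate 1 or 2. They were 16 by DESeq2, 20 by limma-voom, 19 without both WT => St2-/- replicates 2 and 3, and 6 with weeks as a covariate. In St2-/- hosts, St2-/- => St2-/- was below WT => St2-/- with a median of -2.54 (-0.01 over all genes), and 14 of 28 were lower at an unadjusted p under 0.05, against 2.31% of all genes. Again 0% of genes were called and the lowest adjusted p was 0.995. Tac1 was -2.02 (SE 0.708), Sox10 -3.36 (SE 1.18), Gfap -3.32 (SE 1.19) and S100b -2.80 (SE 1.01). Those 14 became 2 without WT => St2-/- replicate 2, 1 and 3 without St2-/- => St2-/- replicates 2 and 3, and 23 without WT => St2-/- replicate 1. They were 7 by limma-voom or in a fit of the 2 groups alone, 1 without both WT => St2-/- replicates 2 and 3, and 1 with weeks as a covariate. In the same comparison 12 of 15 smooth muscle genes and 4 of 8 mast cell genes were lower at an unadjusted p under 0.05, and their part in the result was not tested.

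These 4 comparisons meet in one. It is the mean of the 2 groups with unlike marrow and host genotype (mismatched) minus that of the 2 with like genotype (matched). This difference is the interaction of marrow and host, scaled down and with its sign turned. All 28 genes were higher in the mismatched groups, with a median log2 fold change of 2.29, against 0.00 over all genes. At an unadjusted p under 0.05, 20 were higher and none lower, against 4.52% of all genes higher. No gene of the table was called (0%), and the lowest adjusted p of a member was 0.539. By class the medians were 2.29 for 20 neuron genes, 3.52 for 3 glia genes and 0.82 for 5 shared genes, with 16, 3 and 1 at an unadjusted p under 0.05. The smallest p belonged to Sox10 at 3.97 (SE 0.931, unadjusted p = 0.00141), Gfap at 3.52 (SE 0.873, 0.00207), Tubb3 at 2.91 (SE 0.757, 0.00288) and Stmn2 at 2.03 (SE 0.534, 0.00312) by edgeR's test. Ret, at 0.20 (SE 0.311), and Ncam1, at 0.35 (SE 0.455), were the smallest differences. Sox10, S100b, Gfap, Cartpt and Chrna3 held fewer than 10 counts in every matched library. They passed the low-count filter through mismatched libraries alone, so their direction here and in the 4 comparisons above was partly set by it. Without the filter 30 of 31 genes were above 0 and 1 below, with a median of 2.32. The medians of the 4 comparisons were then 2.64, -2.37, 2.26 and -2.56. DESeq2 called 7 of the 28, Tubb3, Stmn2, Sox10 and Gfap among them. Without St2-/- => WT replicate 1 and WT => St2-/- replicate 2 together, an alternative chosen after seeing the data, 6 of 25 genes were at an unadjusted p under 0.05 and the median was 1.03. Without WT => St2-/- replicates 2 and 3 the count was 0.

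Summed smooth muscle genes were highest in the same 4 libraries as the summed nerve genes. Their 15 summed levels were 381, 790 and 774 CPM in WT => WT, 3818, 2006 and 758 in St2-/- => WT, 545, 4653 and 2217 in WT => St2-/-, and 842, 407 and 699 in St2-/- => St2-/-. No defining smooth muscle marker was at 0, and 13 of 15 were higher in the mismatched groups at an unadjusted p under 0.05, with a median of 2.24. Actg2, the actin of visceral muscle, was 2.92 (SE 0.611) and Cnn1, a contractile regulator, 3.34 (SE 0.751), both with an adjusted p of 0.539 by edgeR. With a smooth muscle score in the model the mismatched difference of the 28 nerve genes had a median of 0.0175, with 15 above 0 and 13 below, and 1 (Penk, -0.63) at an unadjusted p under 0.05. The medians of the 4 single comparisons were then -0.11, -0.066, 0.20 and 0.076, in the order given above. The score was built from these libraries and moved with the groups, and the part of muscle in the result was not tested further. The 4 libraries with the highest sums were all taken 13 weeks after the last injection, and the 2 other mismatched libraries 14 weeks. Matched libraries taken at 13 weeks were WT => WT replicates 1 and 2 and St2-/- => St2-/- replicate 3. Their nerve genes summed to 133.5, 73.8 and 77.2 CPM. With weeks as a covariate, 10 of the 28 were at an unadjusted p under 0.05 in the mismatched comparison.

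**Figure D4:**
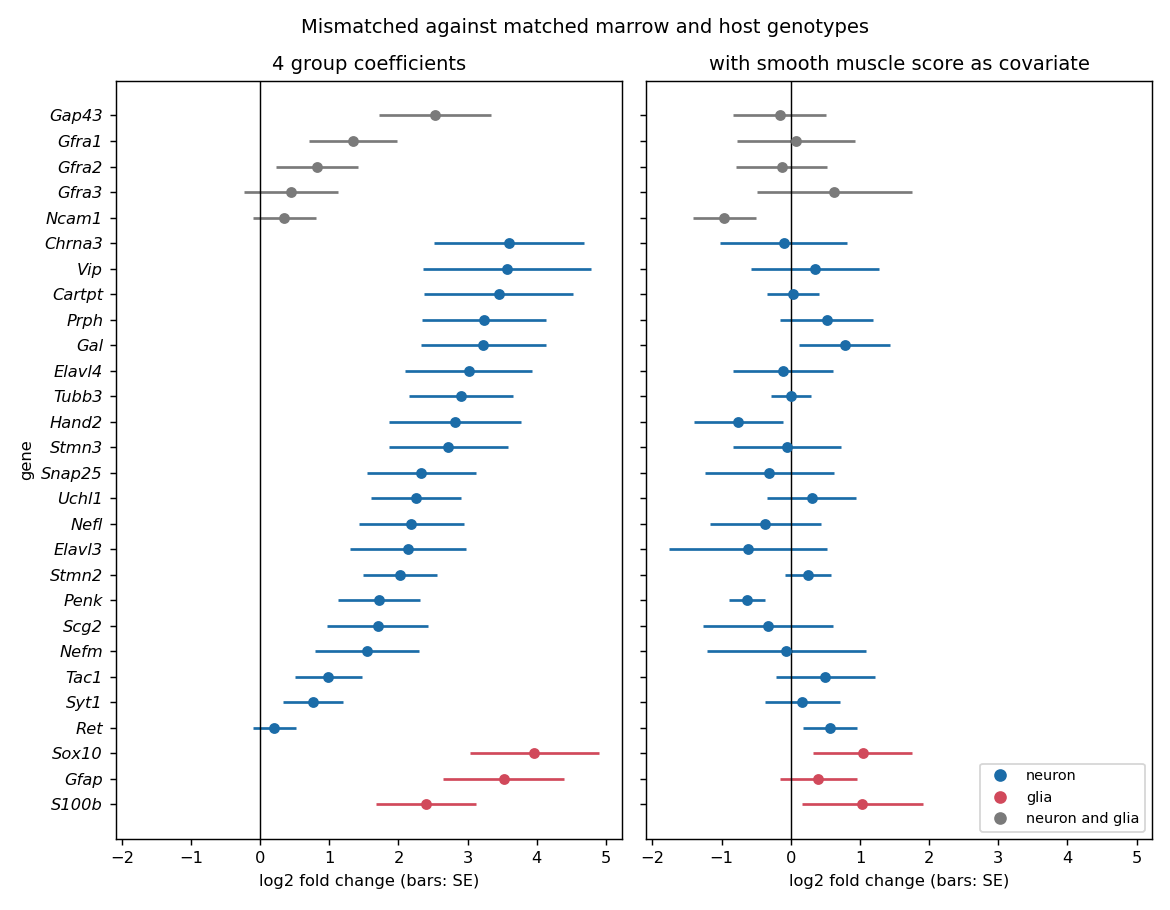
Log2 fold change of each of the 28 genes between mismatched and matched groups, with bars of 1 SE, coloured by class, without (left) and with (right) a smooth muscle score as a covariate. The values centre on 2.29 on the left and on 0.0175 on the right.

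The 12 libraries split into 8 with 0 to 2 Sox10 counts and 19.5 to 58.4 CPM of Myh11, the smooth muscle myosin, and 4 with 8 to 27 Sox10 counts and 240 to 628 CPM of Myh11. Because of this split no correlation over all 12 is given for these genes. Within the 8, Sox10 is at 0 to 2 counts, so a relation with it cannot be tested. Uchl1 and Myh11 gave r = 0.113 within the 8 (rho -0.0714, exact permutation p = 0.801, adjusted over 6 relations 0.88). The 8 were picked from these values. Leaving out the 4 libraries with the highest Myh11 cut the range of both genes. The r within the 8 therefore cannot show whether Uchl1 and Myh11 are related. Uchl1 and the endocrine gene Chga, which have no such split, gave r = 0.0274 over 12 libraries (rho 0.21, permutation p = 0.934, adjusted over 6 relations 0.934), and 0.146 without the 2 libraries farthest in Uchl1. Within the 6 WT hosts that r was 0.15 and within the 6 St2-/- hosts -0.02.

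**Figure D5:**
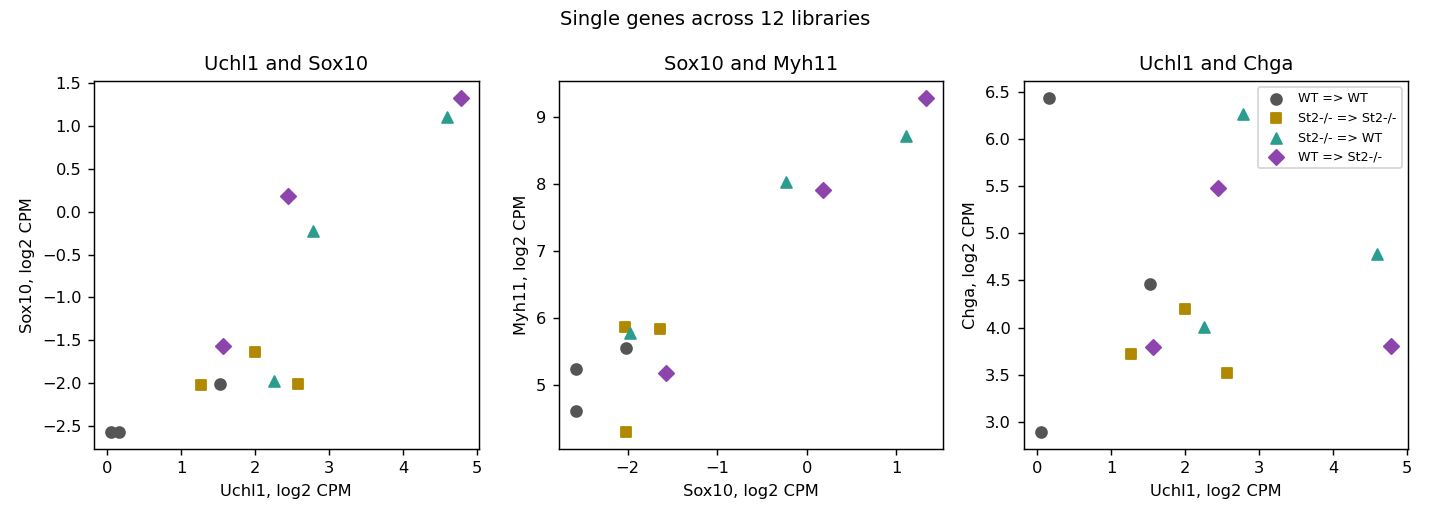
Log2 CPM of Sox10 against Uchl1, Myh11 against Sox10 and Chga against Uchl1 in 12 libraries, with colour and shape for the group. In the middle panel 4 libraries stand apart with 240 to 628 CPM of Myh11, and Uchl1 with Chga in the right panel has r = 0.0274.

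With one genotype averaged over the other, the medians were near 0. For host genotype averaged over marrows the median of the 28 was 0.11 (0.00 over all genes), and 1 gene was higher and 1 lower at an unadjusted p under 0.05, against 20.6% of all genes in either direction and 1.37% called. These were Gfra1 at 2.00 (SE 0.637, adjusted p = 0.137) and Tac1 at -1.56 (SE 0.488, adjusted p = 0.132), both by edgeR. Gfra1 was 0.99 without WT => St2-/- replicate 2. For marrow genotype averaged over hosts no member was at an unadjusted p under 0.05, against 2.76% of all genes, and 0% were called; by DESeq2 1 member and by limma-voom 2 were under 0.05 unadjusted. Between St2-/- => St2-/- and WT => WT, 3 of 28 genes were at an unadjusted p under 0.05, against 13.7% of all genes in either direction and 0.0266% called. Tac1 was -2.59 (SE 0.719, adjusted p = 0.213), Gfra1 2.19 (SE 0.935, adjusted p = 0.34) and Syt1 1.38 (SE 0.622, adjusted p = 0.363) by edgeR. Tac1 had an adjusted p of 0.00814 by DESeq2 and was -1.69 without WT => WT replicate 1, where 1 of the 28 was at an unadjusted p under 0.05.

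Genes of the same cells outside the list were read in the mismatched comparison, with the lists chosen by name. Of 21 other neuron genes 17 were tested, and 11 were higher at an unadjusted p under 0.05, with a median of 1.44. Calb2, the calcium buffer calretinin, was 4.69 (SE 1.07) and Slc5a7, the choline transporter of cholinergic neurons, 3.94 (SE 1.06), each with an adjusted p of 0.539 by edgeR. Calb2 was 4.91 and 14.9 CPM in St2-/- => WT replicate 1 and WT => St2-/- replicate 2 and 0 in 3 of the 6 matched libraries. Of 13 other glia genes tested, 5 were higher, with a median of 0.15. Scn7a, a sodium channel of glia, had the smallest p and was highest in WT => St2-/- replicate 2 at 8.09 CPM and St2-/- => WT replicate 1 at 8.01. Of the ligand and endothelin genes that act on neural crest cells, none of 6 was higher and 1 was lower (Ece1, -0.23, SE 0.0976, adjusted p = 0.647 by edgeR), with a median of 0.27. Gdnf itself, made by muscle and glia, was 1.64 CPM in St2-/- => WT replicate 1 and 3.22 in WT => St2-/- replicate 2 and at most 1.11 in the other libraries. Of the other cell kinds, beside 4.52% of all genes higher at an unadjusted p under 0.05, 2 of 14 endocrine genes were higher, with 13 above 0 and a median of 0.56. Of the 4 genes tested of interstitial cells of Cajal, the gut pacemaker cells, 1 was higher, with 4 above 0 and a median of 0.27. Of 8 mast cell genes 2 were higher, with 7 above 0 and a median of 1.18. None of 8 epithelial, 6 fibroblast or 6 leukocyte genes was higher or lower, and 1 of 5 tuft cell genes was lower. Of all 15060 genes tested, 463 were lower at that p in this comparison. Differences between these lists and the nerve genes were not tested. Mast cell genes summed to 2109 CPM in WT => St2-/- replicate 2 and to 47.3 to 608 in the other libraries, and epithelial genes were lowest there, at 5656 CPM.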

How the data were processed

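RNA of 12 snap-frozen tumours was sequenced as single 50-base reads. The authors deposited raw counts per gene; per the submitters' processing notes TopHat and Bowtie2 and builds GRCm38 and mm10 were used, while the counter and its strandedness are not given in the sources used here. Uchl1, Penk, Hand2, Ncam1, Nos1, Gfra1, Nefl and Nefm overlap a gene on the opposite strand, so their counts are less certain. The 5 summary entries, 49.8% to 59.6% of each library, name no gene and were left out. With R 4.3.3 and edgeR 4.0.16, counts were scaled by TMM (0.899 to 1.12) and filtered by filterByExpr (minimum count 10, at least 3 libraries). This left 15060 genes, fitted with 4 group coefficients by a robust quasi-likelihood test, two-sided, in 8 comparisons, adjusted by Benjamini-Hochberg over all genes tested and called under 0.05. The SE is the log2 fold change divided by the root of F. Tested on simulated data for host genotype under WT marrow (14874 genes, 200 changed), the fit recovered 27% of 2-fold and 64% of 4-fold changes, with 9 false among 100 calls. The changed genes were drawn at random from all genes tested. Members varied more within groups (median SD of log2 CPM 1.33 against 0.312), so these recovery rates do not carry over to them. Log2 CPM used a prior count of 2; 3 counts correspond to 0.229 to 0.29 CPM. Limma 3.58.1 and DESeq2 1.42.0 were alternatives, as were other filters, covariates and libraries left out. Exon lengths came from GENCODE on GRCm38. Permutation tests used 1e+05 resamples, except the exact test within 8 libraries.

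Members and gene lists were chosen with earlier results of these data known. Every glia gene, 7 neuron genes named for their use as markers, the 10 members with the highest mean CPM and the 4 with the smallest p in each comparison have values by library; of other lists the 2 genes with the smallest p were named, with the genes of the relations. Gal, Chgb, Pyy, Gdnf, Penk in the muscle model and Ece1 were singled out after their values were seen. Labels call the samples biological replicates, with 3 in each group. Of the 6 relations computed, 1 is given over 12 libraries and 1, Uchl1 with Myh11, within 8 only. One gene of the other glia list is not reported here.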

Additional observations from a re-analysis of the deposited data

How the results depend on the processing

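The members' calls depended on the tool. The share of all genes that DESeq2 and limma-voom called is not given beside these counts. They are therefore not read as a result about the members. DESeq2 called 7 members for host genotype under WT marrow and 7 for mismatched against matched genotypes, and 1 each for host genotype under St2-/- marrow, St2-/- => St2-/- against WT => WT, and host genotype averaged over marrows. Limma-voom with sample weights called 8 for host genotype under St2-/- marrow and 1 for St2-/- => St2-/- against WT => WT, and its median for host genotype under WT marrow was 1.40. edgeR called 0 members in each of the 8 comparisons under every other setting tried, including each library left out in turn. With each library left out in turn, medians ranged from 1.27 to 3.21 for host genotype under WT marrow, -3.00 to -1.49 under St2-/- marrow, 1.64 to 2.86 for marrow genotype in WT hosts, -3.13 to -1.25 in St2-/- hosts, and 1.72 to 2.80 for mismatched against matched.

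With the smooth muscle score as covariate the medians were -0.11, -0.066, 0.20 and 0.076 for host genotype under WT and St2-/- marrow and marrow genotype in WT and St2-/- hosts, and 0.0175 for mismatched against matched; Penk was 0.047 for host genotype under St2-/- marrow. Without WT => St2-/- replicates 2 and 3 the medians were -0.19 for host genotype under WT marrow, 0.29 for marrow genotype in St2-/- hosts, -1.14 and 1.46 for host and marrow genotype averaged, and 0.94 for mismatched against matched. There Gfap was 0.27 for marrow genotype in St2-/- hosts, Cartpt -0.37 for host and Nefm 0.19 for marrow genotype averaged. The lone WT => St2-/- library was assumed to vary like the other groups. Without St2-/- => WT replicate 1 and WT => St2-/- replicate 2, chosen after seeing the data, medians were 1.17, -1.25 and 1.03 for host genotype under WT marrow, marrow genotype in St2-/- hosts, and mismatched against matched. The cause was not tested. For the 4 members with the smallest p in each comparison, 32 results in all, 709 values under alternatives were computed. Of these, 691 kept their direction and side of the threshold, 14 became called and 4 changed sign. None of the 32 was called by edgeR in the main fit, so a value counted as kept even where it shrank towards 0. In the mismatched comparison Tubb3, Stmn2, Gfap and Sox10 were 2.91, 2.03, 3.52 and 3.97. With the muscle score they were 0.0034, 0.25, 0.40 and 1.04. Other members were not followed singly, except in the mismatched comparison with the muscle score, where 13 of 28 were below 0.

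The mean log2 ratio of neuron to glia sums was 8.12, 5.89, 5.60 and 6.95 in WT => WT, St2-/- => WT, WT => St2-/- and St2-/- => St2-/-. With mean log2 CPM per class it was 1.98, 1.92, 1.42 and 1.91, and with the other glia genes added to the glia list -1.33, -0.72, -0.58 and -1.96. The ratio of sums was thus lower in both mismatched groups than in the matched groups, but higher in both once those glia genes were added. By mean log2 CPM, St2-/- => WT lay between the matched groups.

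Replicate numbers did not pair the libraries: same-numbered libraries of different groups correlated between -0.44 and 0.308, and 1 of 12 was closest to its own number. With the replicate block 0 members were called, the medians were 2.63, -2.30, 2.18, -2.60 and 2.30 in the order of the 5 ranges above, and 10, 3, 6, 6 and 22 members were at an unadjusted p under 0.05. Depth limits Chat, Nos1, Ecel1 and the glia genes, which held at most 4 counts in several libraries.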
